A study of Mus musculus with 8 samples.

Results

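Kidney RNA of db/db mice given a mimic of miR-181b-5p was compared with kidney RNA of untreated db/db mice. The members are the 4 arrays whose source labels name these groups, 2 per group, out of 8 arrays in the series. Both groups were male, 20 weeks old and of strain C57BLKS/J Iar -+Leprdb/+Leprdb, so every mouse compared here carried the Leprdb allele on both chromosomes, and the groups are the untreated db/db mice (n = 2) and the db/db mice (also n = 2) that received miRNA-181b-5p-mimic-PEI-NPs. The other arrays of the series are 2 from db/db mice of the same strain given control-miRNA-PEI-NPs and 2 from normal mice (C57BLKS/J Iar -m+/m+), and they are used here as reference values. Neither the dose, route and schedule nor the hour at which the kidneys were taken is stated in the sources used here, and each group rests on 2 mice. Lrp2, Slc34a1, Umod and Aqp2, which define tubule and collecting duct cells of the kidney, lay well above background on all 4 arrays.

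A miRNA guides Argonaute proteins to mRNAs whose 3′ untranslated region pairs with its seed, the bases near its 5′ end, and the paired mRNAs are then degraded or translated less. A mimic is a synthetic duplex that is loaded in place of the mature miRNA, and polyethylenimine nanoparticles (PEI-NPs) carry such duplexes into cells. miR-181 family members are known for tuning T cell receptor signalling, inflammatory signalling through nuclear factor kappa B and cell death. The db/db mouse lacks the long leptin receptor, becomes obese and diabetic, and is used as a model of diabetic kidney disease.

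The mature sequences of the family show what the mimic stands for, and are given from RefSeq on GRCm38.p6. Capitals mark the seed, bases 2 to 8 from the 5′ end.
miR-181a-5p: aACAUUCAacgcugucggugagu
miR-181b-5p: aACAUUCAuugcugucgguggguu
miR-181c-5p: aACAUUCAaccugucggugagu
miR-181d-5p: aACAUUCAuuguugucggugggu
All 4 members share 1 seed. miR-181b-5p is encoded at chr1:137966650-137966673 (Mir181b-1) and chr2:38853845-38853868 (Mir181b-2), both on the plus strand. The array reads mRNA and long RNA through 60-base probes, and none of the 9 genes of the miR-181 loci looked for had a probe under its name, so neither the mimic nor the mature miRNA was measured.

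Expression levels are log2 signals relative to the 75th percentile of the same array, so that 0 is the 75th percentile. Between 56.5% and 62.5% of probes per array lay well above background, and no spot was saturated. After the filter 22371 genes were tested, and 19597 of them passed the background call on each of the 4 arrays compared. Untreated and mimic arrays both sat in array columns 3 and 4 of 1 slide, but untreated arrays lay in array row 1 and mimic arrays in row 2, so the row and the mimic cannot be told apart. In whole kidney, fewer cells of a type and less RNA per cell cannot be told apart either.

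The first question was which genes differed between mimic and untreated kidney over both mice. In the limma fit over all 8 arrays, 0 of 22371 genes passed at a Benjamini-Hochberg adjusted p under 0.05, and the smallest adjusted p was 0.0740. At an unadjusted p under 0.05, 3107 genes (13.9%) were found, 1366 higher (6.11%) and 1741 lower (7.78%) after the mimic. With 2 mice per group, the smallest p of an exact permutation test on a single gene is 0.333. Against the control-miRNA mice, 0 genes passed as well and 2083 (9.31%) had an unadjusted p under 0.05, and between the control-miRNA and the untreated mice 0 passed and 726 (3.25%) did. These contrasts share their arrays with the first. The mimic arrays were less alike (r = 0.976 across genes) than the untreated arrays (r = 0.997) or the control-miRNA arrays (r = 0.995). Without mimic replicate 2 the fit called 4149 genes, 1711 higher (7.65%) and 2438 lower (10.9%). Without mimic replicate 1 it called 0 in each direction, with a smallest adjusted p of 0.0539. Each of these fits compares 1 mouse with the untreated mice and assumes that it varies like the mice of the other groups.

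Each mimic array was therefore set against the untreated mean on its own. A gene was assigned to both mimic arrays where each lay at least 2-fold (1 on the log2 scale) from the untreated mean in the same direction and beyond both untreated arrays. It was assigned to 1 array where that array met the limit and the other lay within 0.5 of the untreated mean. On both arrays, 186 genes (0.831% of those tested) were higher and 164 (0.733%) were lower, 350 in all (1.56%). On mimic replicate 1 alone, 769 genes (3.44%) were higher and 1095 (4.89%) lower, 1864 in all (8.33%). With normexp background correction these were 565 higher and 363 lower, and with probes well above background on all 8 arrays 673 and 641, so the excess of lower genes held under neither. On mimic replicate 2 alone, 26 (0.116%) were higher and 91 (0.407%) lower, 117 in all (0.523%). A further 29 genes (0.13%) met the limit in opposite directions. The same rule applied to the control-miRNA arrays gave 57 genes (0.255%) higher and 23 (0.103%) lower on both and 82 (0.367%) higher on control replicate 1 alone, and the untreated arrays themselves lay at least 2-fold apart at 164 genes (0.733%). The groups did not overlap at 10692 genes (47.8%), 4628 higher (20.7%) and 6064 lower (27.1%) after the mimic. Just inside the limit stood Ubtf (smaller difference 1.00) and Eln (1.01), and just outside it Xrn1 (0.996).

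**Figure D1:**
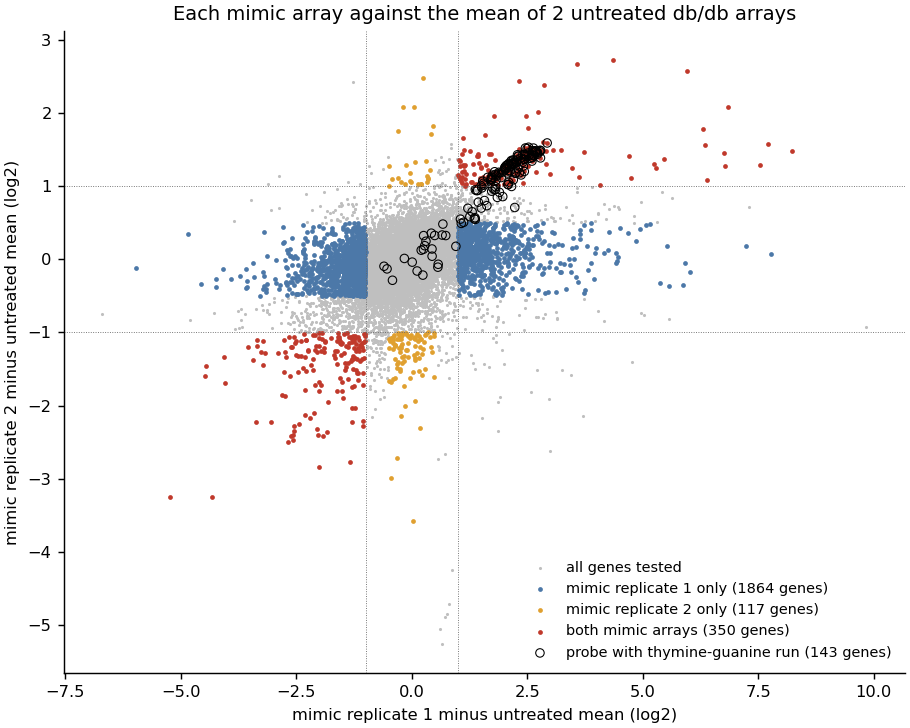
Difference of each mimic array from the untreated mean (log2), 1 point per gene; mimic replicate 1 is on the x axis and mimic replicate 2 on the y axis, and dotted lines mark the 2-fold limit. The blue genes of replicate 1 alone (1864) spread far along the x axis at small y values, and the open circles, 143 genes read by probes with a thymine-guanine run, lie along 1 oblique line in which replicate 1 differs more than replicate 2.

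Within the 186 genes higher on both arrays, 94 were read by a probe that holds a run of at least 10 alternating thymine and guanine bases. This grouping was made after the values were seen. Such runs are simple repeats that occur at many places of the genome, mostly outside coding sequence. The stretches below are 30 of the 60 bases of probes with such a run, with the run in capitals, from the array's own annotation on mm9. By the smaller of the 2 array differences, Atxn7 to Scn8a ranked 1 to 5 among annotated genes with such a probe. Psme3 and Slc1a4 ranked 12 and 17.
Atxn7: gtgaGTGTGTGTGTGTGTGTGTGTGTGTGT
Igsf9: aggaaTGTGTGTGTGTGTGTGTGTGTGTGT
Srgap2: gcaGTGTGTGTGTGTGTaaatgtacatata
Il15ra: tatgtaTGTGTGTGTGTGTGTGTatgtaaa
Scn8a: acatgtaTGTGTGTGTGTGTGTGaagaatg
Psme3: cgtgcacaTGTGTGTGTGTGTtcgtgtgtg
Slc1a4: atgtatcaaGTGTGTGTGTGTatgtgtgtg
The Atxn7 probe lies at chr14:14938719-14938778 (plus strand) and the Srgap2 probe at chr1:133181916-133181975 (minus strand), with runs of 26 and 14 bases. The genes do not share a role: Atxn7 encodes a subunit of the SAGA chromatin complex, Igsf9 a neuronal adhesion protein, Il15ra the receptor chain for interleukin 15 and Scn8a a voltage-gated sodium channel.

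The Atxn7 probe stood at 4.86 and 4.69 on the untreated arrays, 4.67 and 4.58 on the control-miRNA arrays and 7.23 and 6.30 on the mimic arrays (difference 1.99 ± 0.30, standard error of the limma fit, adjusted p = 0.119). The Srgap2 probe stood at 3.13 and 2.98 untreated, 3.21 and 2.92 in control-miRNA mice and 5.73 and 4.54 after the mimic (adjusted p = 0.138). The Psme3 probe, for a proteasome activator, stood at 2.65 and 2.59 untreated and at 5.23 and 4.05 after the mimic. In each case mimic replicate 1 was the highest array and mimic replicate 2 the second, and neither overlapped the other db/db arrays.

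All 143 genes with such a probe were counted. On mimic replicate 1, 139 were higher than the untreated mean, and on mimic replicate 2, 135 were. The 2-fold limit was met on both arrays by 94 (65.7%, against 0.831% of all genes), in the lower direction by 0, and by 0 on the control-miRNA arrays in either direction. Their median difference was 2.03 on mimic replicate 1 and 1.18 on mimic replicate 2, against -0.03 and -0.16 on the control-miRNA arrays. None passed the limma test, and 124 had an unadjusted p under 0.05 in either direction (13.9% of all genes had). The median level of the 143 probes was 3.24 and 3.24 on the normal arrays, 3.96 and 3.94 on the untreated, 3.85 and 3.92 on the control-miRNA and 6.11 and 4.95 on the mimic arrays. The difference was larger for runs from 12 bases on than for shorter ones: its median on mimic replicate 1 was 0.17 for runs of 8 to 9 bases (105 genes), 1.06 for 10 to 11 (36 genes), 2.24 for 12 to 13 (26 genes), 2.48 for 14 to 15 (12 genes), 2.35 for 16 to 19 (21 genes) and 2.02 for 20 or more (48 genes).

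Probes with the complementary letters, runs of cytosine and adenine, differed the other way. The 67 genes with such a run of at least 10 bases had a median difference of -1.70 on mimic replicate 1 and -0.80 on mimic replicate 2, against 0.14 and 0.15 in control-miRNA mice. Of them 5 (7.46%) met the limit as lower on both arrays (0.733% of all genes did) and 0 as higher (0.831% of all genes did). The probes of Lrig2, a regulator of growth factor receptors, and Slc17a5, the lysosomal sialic acid exporter, show the run.
Lrig2: CACACACACACACACAtgtaattctaaatc
Slc17a5: atggACACACACACACACACACACACtgat
Lrig2 stood at 0.94 and 0.97 untreated, 1.35 and 1.24 in control-miRNA mice and -1.45 and -0.16 after the mimic. The normal arrays stood apart from the untreated ones in the reverse sense, with median levels of 2.23 and 2.03 against 1.14 and 1.04 for these probes. Runs of guanine and adenine (36 genes) had medians of 0.19 and 0.11, and runs of cytosine and thymine (43 genes) -0.36 and -0.03.

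Other probes of the same genes did not share the difference. For 57 of the 143 genes, the array holds 99 further probes whose thymine-guanine run is under 6 bases, and these had a median difference of 0.06 and 0.01 on the mimic arrays where the run probes of the same genes had 2.08 and 1.20. For 24 genes of the cytosine-adenine set, 30 other probes had medians of 0.01 and 0.19 against -1.74 and -0.88. The values of these genes are therefore given here as values of the probe with the run, and 4 members of the gene groups below are read in this way: Itgam, Junb, Acot3 and Fgf23. Some of the other probes of the thymine-guanine genes were dim. Their mean untreated level was -4.07 for Igsf9 and -4.11 for Wdr89, against 4.24 and 5.20 for the run probes. Others were bright, at 2.40 for Dmtn and 2.44 for Terf2ip, against 2.485 and 4.50 for the run probes. Which RNA the run probes bound was not tested.

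**Figure D2:**
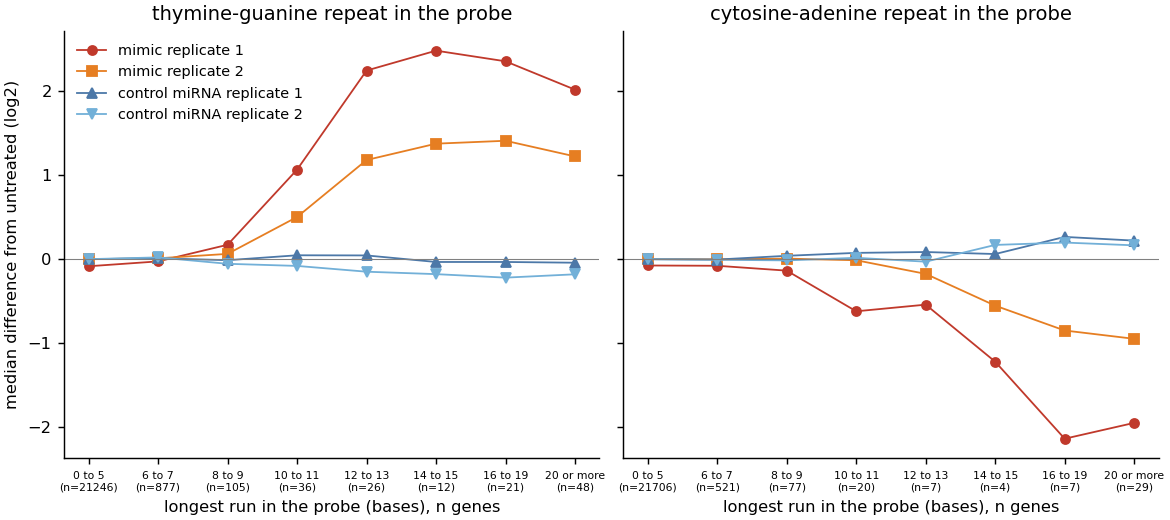
Median difference from the untreated mean (log2, y axis) of genes grouped by the longest thymine-guanine run (left) or cytosine-adenine run (right) in their probe (x axis, bases, with the number of genes), for both mimic and both control-miRNA arrays. On the left both mimic arrays lie well above 0 from 10 to 11 bases on; on the right replicate 1 lies below 0 from 10 to 11 and replicate 2 from 12 to 13 bases on, while the control-miRNA arrays depart by at most 0.26.

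Outside the run probes, 92 genes were higher and 159 lower on both mimic arrays, and 62 and 147 of these also lay beyond both control-miRNA arrays. Of the 92, 47 lay well above background on all 4 arrays, and of the 159, 40 did. Of all 164 lower genes, 103 were not well above background on either mimic array. Nfil3, Arntl, Cish, Socs2, Igtp and Tgtp2 were among those higher, and Ciart, Nr1d1, Cyp24a1 and Alox5 among those lower.

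Of the clock genes, 7 stood apart on both mimic arrays, in both directions. The loop consists of the activators Arntl (BMAL1) and Clock, their repressors of the Per and Cry families, and the REV-ERB repressors that act on Arntl. Of 21 clock genes measured, 4 were at least 2-fold higher on both mimic arrays (among them Nfil3, Arntl and Cry1) and 3 were lower (Ciart, Nr1d1, Dbp), and 3 more were lower on mimic replicate 1 alone (Bhlhe41, Tef, Per3). None passed the limma test, and 6 had an unadjusted p under 0.05 (13.9% of all genes had). Of all genes, 0.831% were higher and 0.733% lower on both arrays, and 4.89% were lower on replicate 1 alone.

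Nr1d1, which encodes the repressor REV-ERB-alpha, stood at -0.62 and 0.54 untreated, -0.09 and -0.17 in control-miRNA mice and -2.61 and -2.51 after the mimic (-2.52 ± 0.50, adjusted p = 0.149). Arntl, a target of that repressor, stood at -2.76 and -2.90 untreated, -3.01 and -2.58 in control-miRNA mice and -0.30 and -1.55 after the mimic (1.90 ± 0.62, adjusted p = 0.283). Nfil3, a repressor of D-box genes and another REV-ERB target, stood at -0.47 and -0.36 untreated, -1.0 and -0.20 in control-miRNA mice and 3.16 and 2.26 after the mimic (3.12 ± 0.65, adjusted p = 0.154). For all 3 genes both mimic arrays lay outside the 4 other db/db arrays, and a second Nfil3 probe gave 3.47 and 2.49 for the 2 mimic mice.

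Cry1, a repressor of the activator pair, stood at -3.74 and -4.27 untreated and at -2.89 and -2.72 after the mimic. The 2 mimic mice lay close together and above all other db/db arrays.

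Ciart, a clock repressor also called CHRONO, stood at -0.81 and -0.64 untreated, -1.78 and -1.94 in control-miRNA mice and -5.96 and -3.97 after the mimic (-4.24 ± 1.45, adjusted p = 0.296). On mimic replicate 1 it lay under the lowest level well above background (-5.08), so the size of its difference there is only a bound. Dbp, an activator of D-box genes, stood at 5.23 and 5.36 untreated, 5.71 and 5.27 in control-miRNA mice and 1.76 and 4.09 after the mimic (adjusted p = 0.435). Both genes were lower on mimic replicate 1 than on replicate 2, and the control-miRNA arrays were lower than the untreated ones for Ciart but not for Dbp. Clock itself (0.72 and 0.77 untreated, 1.53 and 0.98 after the mimic), Per1 (3.14 and 3.13 against 3.26 and 3.05) and Per2 (1.17 and 0.55 against 1.39 and 1.54) stayed within the 2-fold limit on both arrays. The normal mice differed from each other at the same genes: Dbp stood at 1.60 and 5.29 in them, Ciart at -6.99 (below background) and -2.31 and Arntl at -0.57 and -2.27.

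**Figure D3:**
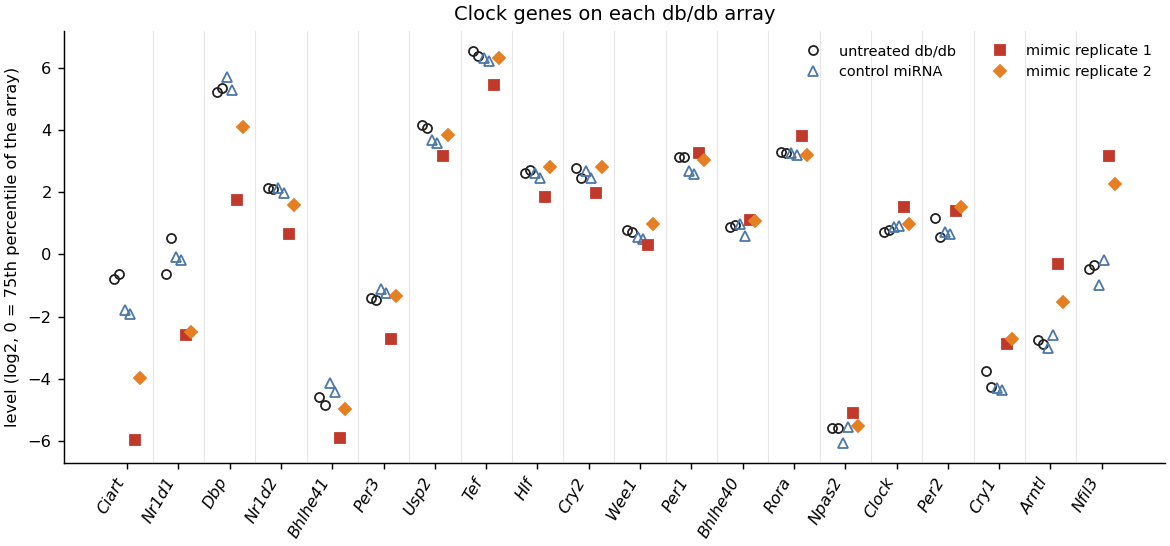
Level (log2, y axis) of each of 20 clock genes (x axis, ordered by the mean of the 2 mimic differences) on the 2 untreated, 2 control-miRNA and 2 mimic arrays. Both mimic arrays lie below the other db/db arrays for Ciart, Nr1d1 and Dbp at the left and above them for Cry1, Arntl and Nfil3 at the right, while in the middle mimic replicate 2 lies near the untreated and control-miRNA arrays for most genes.

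Clock activators bind the E-box CACGTG, searched here on both strands in the 300 bases around each start site that RefSeq gives on GRCm38.p6 (250 before, 50 after). It was found in 9.34% of 13429 promoters of genes tested and in 5 of 17 clock promoters (Bhlhe41, Ciart, Cry1, Per1 and Tef). Among promoters of genes without a run probe, 3 of 42 higher on both arrays (7.14%) and 5 of 88 lower on both (5.68%) held it. Ciart, which was lower on both arrays, had 3 matches at chr3:95882252-95882359 (minus strand), and Cry1, which was higher, had 1 at chr10:85185094-85185129 (minus strand), with the matches in capitals.
Ciart: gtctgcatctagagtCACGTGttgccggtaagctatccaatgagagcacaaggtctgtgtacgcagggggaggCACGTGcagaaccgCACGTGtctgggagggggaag
Cry1: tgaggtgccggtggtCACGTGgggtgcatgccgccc

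The smallest p-values over all genes belonged to genes on which the 2 mimic mice were close to each other. Alox5, the 5-lipoxygenase that starts leukotriene synthesis, stood at -2.41 and -2.51 untreated, -2.73 and -2.84 in control-miRNA mice and -4.28 and -4.42 after the mimic (-1.88 ± 0.12, 3.69-fold lower, adjusted p = 0.0740). It stood at -5.16 and -5.29 in normal kidney, below background on both arrays, so the normal level is only a bound. The signals of the mimic mice lay between those of the untreated and the normal mice. Tmem269 was well above background on both untreated arrays and on neither mimic array, which makes it at least 2.33-fold lower (adjusted p = 0.0740). Gli3, the transcription factor of hedgehog signalling, was dim after the mimic in the same way and at least 1.49-fold lower.

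Mt2, a metallothionein that binds zinc and copper, stood at 5.40 and 5.34 untreated, 5.70 and 5.68 in control-miRNA mice and 6.87 and 6.63 after the mimic (1.38 ± 0.13, 2.60-fold, adjusted p = 0.114). Mt1 stood at 6.84 and 6.79 untreated, 6.91 and 7.12 in control-miRNA mice and 7.66 and 7.70 after the mimic (adjusted p = 0.119). Hmox1, the haem oxygenase, stood at 1.96 and 1.74 untreated and 2.76 and 2.90 after the mimic (adjusted p = 0.119). For these probes of Mt2, Mt1 and Hmox1 both mimic mice lay above all 6 other arrays, normal mice included, but a second Mt1 probe differed by 0.51 and -0.38.
The other metal response genes did not share the difference. The importer Slc39a14 was higher on mimic replicate 1 alone, by 1.93 (a level of 2.04, against a level of 0.36 on replicate 2). Mt3, Mtf1 and Slc30a1 differed by 0.34 or less on both mimic arrays. The list of 9 genes had medians of 0.32 and 0.34. Mt2 and Mt1 lie side by side on chromosome 8. Their promoter windows hold 4 and 3 matches to the metal response element (TGCACNC or TGCGCNC, both strands), a motif found in 33.5% of the promoters tested and in 12 of the 42 of genes higher on both arrays (28.6%).

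Other probes with close values in both mimic mice were those of Pip5k1a, a lipid kinase that makes PIP2, at 2.98 and 2.92 untreated and 4.30 and 4.12 after the mimic (adjusted p = 0.114), and Rbm14, a paraspeckle RNA-binding protein, at 1.90 and 1.89 untreated and 2.85 and 2.88 after the mimic (adjusted p = 0.119). A second Rbm14 probe gave 1.00 and 1.03 above the untreated mean, whereas the 2 other Pip5k1a probes gave -0.13 and -0.04 and -0.19 and -0.52, so only 1 of its 3 probes was higher. Creb3l3, a membrane-bound activator of fasting and lipid genes, stood at -3.50 and -4.42 untreated, -3.98 and -3.57 in control-miRNA mice and -1.09 and -1.58 after the mimic (2.62 ± 0.36, adjusted p = 0.119). Rab30, a Golgi GTPase, stood at -3.02 and -3.24 untreated and -1.69 and -1.72 after the mimic. The mimic mice lay closer to each other than to any untreated array for each of these genes.
Pck1, the enzyme that commits carbon to glucose production in the proximal tubule, stood at 7.17 and 6.99 untreated, 7.03 and 7.01 in control-miRNA mice and 8.36 and 8.06 after the mimic, just under the 2-fold limit on replicate 2 (0.98).

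Cish and Socs2, 2 feedback inhibitors of cytokine receptors, were at least 2-fold higher on both arrays without passing the test. Cish, which blocks STAT5 signalling, stood at 0.36 and 0.10 untreated, 0.99 and 1.12 in control-miRNA mice and 1.82 and 1.93 after the mimic (1.64 ± 0.28, adjusted p = 0.126). Socs2, the feedback inhibitor of growth hormone signalling, stood at -1.44 and -1.55 untreated, -0.74 and -1.04 in control-miRNA mice and 0.29 and -0.14 after the mimic (1.58 ± 0.24, adjusted p = 0.119). The control-miRNA arrays lay between the untreated and the mimic arrays for both genes. The normal arrays did not stand apart from the mimic ones for Cish (1.32 and 2.17).

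Tnfrsf25, a death receptor of lymphocytes, met the same limit on the control-miRNA arrays, with -3.11 and -3.91 untreated, -2.25 and -2.09 in control-miRNA mice and -1.0 and -1.71 after the mimic. Slc25a25, a mitochondrial carrier of ATP-Mg, stood at 2.31 and 1.81 untreated, 1.52 and 1.29 in control-miRNA mice and 4.96 and 3.37 after the mimic. Nkx6-2, Akna and Banp, all regulators of transcription, were also higher on both arrays, with differences of 3.23 and 1.5, 2.90 and 1.49, and 1.60 and 1.29 on the 2 mimic arrays. The Akna probe holds a thymine-guanine run of 9 bases, and another Akna probe differed by 0.29 and 0.20. Akna, Banp, Slc25a25, Socs2, Rab30, Gbp6 and Iigp1 were added to the named genes after the values were seen, in place of genes read by run probes.

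Cyp24a1, the 24-hydroxylase that degrades active vitamin D, was among the genes furthest below the untreated mice on both arrays. It stood at 4.74 and 4.23 untreated, 3.61 and 2.32 in control-miRNA mice and 0.16 and 1.23 after the mimic (-3.79 ± 0.51, 13.8-fold lower, adjusted p = 0.119). The normal mice stood at 1.20 and 1.04, near mimic replicate 2. Against the control-miRNA mice the difference was -2.27, with an adjusted p of 0.249. Cyp27b1, which makes active vitamin D, was higher on mimic replicate 1 alone (2.58 against 0.98 and 0.97 untreated, and 1.46 on replicate 2), and Vdr, the vitamin D receptor, differed by -0.44 and -0.02. The Fgf23 value (-2.22 and -0.99) comes from a probe with a cytosine-adenine run. Of 15 genes of vitamin D and mineral handling, 1 was lower on both arrays and 3 on replicate 1 alone (0.733% and 4.89% of all genes were).

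Other genes that were lower on both arrays and well above background had unlike roles. Cck, the peptide cholecystokinin, stood at 0.32 and 0.54 untreated, -0.57 and 1.08 in control-miRNA mice and -3.60 and -1.26 after the mimic. Cirbp, an RNA-binding protein made in the cold and with the clock, stood at 3.58 and 3.80 untreated, 3.01 and 2.77 in control-miRNA mice and 0.26 and 2.32 after the mimic. C1qtnf2, an adipokine-like protein, stood at -0.15 and 0.09 untreated and -1.99 and -1.75 after the mimic (adjusted p = 0.119). For Cck and Cirbp mimic replicate 1 lay well below replicate 2, while for C1qtnf2 the mimic mice lay close together. Another Cirbp probe gave differences of -2.83 and -1.24 and a further one -0.42 and 0.40, so the probes of this gene disagree.
Kcnip3 (a calcium-binding channel partner), Rgs9 (a regulator of G protein signalling), Vipr1 (a receptor for vasoactive intestinal peptide) and Ldc1 had differences of -2.14 and -1.51, -1.61 and -1.44, -4.06 and -1.34, and -3.21 and -1.45. Another Vipr1 probe differed by -0.59 and -0.61 and another Rgs9 probe by -0.76 and -0.51, so both genes met the limit by some of their probes only. Genes lower on both arrays whose mimic values are only bounds were Scube1 (at least 3.02-fold), Kcnu1 (2.39-fold), Fam47e (2.27-fold) and Baalc (2.11-fold).

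Of 28 genes of cholesterol and fatty acid synthesis, 0 passed and 1 was at least 2-fold lower on both arrays (0.733% of all genes were). On replicate 1, 7 were above the untreated mean (9521 of 22371 genes tested were). At an unadjusted p under 0.05, 9 were lower (7.78% of all genes were) and 0 higher, with medians of -0.45 and -0.17. Idi1, an enzyme of isoprenoid synthesis, stood at 2.35 and 2.23 untreated and at 0.89 and 1.38 after the mimic, and Insig1, the sterol sensor partner, at -1.21 and -1.30 untreated and -3.08 and -2.16 after the mimic. Fasn, the fatty acid synthase, differed by -0.01 and 0.19.

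Of 20 heat shock genes, 0 passed and 0 were at least 2-fold higher on both arrays. At an unadjusted p under 0.05, 7 were higher (6.11% of all genes were) and 0 lower, with medians of 0.68 and 0.30. Hsph1, a nucleotide exchange factor of HSP70, stood at 2.15 and 2.08 untreated, 2.27 and 2.41 in control-miRNA mice and 3.36 and 2.92 after the mimic. Hspa8 stood at 6.53 and 6.26 untreated, 6.62 and 6.24 in control-miRNA mice and 6.90 and 6.93 after the mimic. Hspd1 and Hspe1, the mitochondrial chaperonins, differed by 0.04 and 0.03 and by 0.27 and -0.01.
Of 22 immediate early genes, Fos and Atf3 (1.99 and 1.03) met the limit as higher on both arrays (0.831% of all genes did). Fos was spread on the other arrays as well, at -2.46 and -3.54 untreated and -1.79 and -0.31 in control-miRNA mice, and at 0.47 and -1.75 after the mimic, so that mimic replicate 2 lay below control replicate 2. Junb is read by a thymine-guanine run probe.

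Interferon-inducible genes were far above the untreated mice on mimic replicate 1, and few of them were on replicate 2. These genes are transcribed through STAT proteins and the interferon regulatory factors, and the immunity-related GTPases (Igtp, Irgm1, Iigp1, Tgtp2) and guanylate-binding proteins (Gbp genes) among them attack vacuoles of intracellular pathogens. Of 35 such genes measured, 4 were at least 2-fold higher on both arrays (Cxcl9, Gbp6, Igtp, Iigp1) and 18 on mimic replicate 1 alone, with medians of 2.31 on replicate 1 and 0.48 on replicate 2, against 0.68 and 0.14 on the control-miRNA arrays and -0.08 and -0.002 for all genes on the mimic arrays. Of all genes, 0.831% were higher on both arrays and 3.44% on replicate 1 alone. The replicate 2 median of the interferon genes was below that of control replicate 1. None passed the limma test, and 11 had an unadjusted p under 0.05 as higher (6.11% of all genes had).

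Tgtp2 stood at -0.99 and -1.01 untreated, 1.12 and -0.54 in control-miRNA mice and 5.84 and 1.09 after the mimic. Igtp stood at 0.57 and 0.72 untreated, 1.83 and 0.79 in control-miRNA mice and 7.03 and 1.73 after the mimic. Gbp6 stood at -4.51 and -4.09 untreated, -2.41 and -3.72 in control-miRNA mice and 3.94 and -2.82 after the mimic. Mimic replicate 1 was far above every other array, and mimic replicate 2 did not reach control replicate 1 for any of these 3.
Iigp1 stood at -0.79 and -0.80 untreated, 0.87 and -0.67 in control-miRNA mice and 6.74 and 0.50 after the mimic, and Ubd, a ubiquitin-like protein induced by interferon gamma and TNF, at -3.46 and -3.75, at -1.59 and -4.11, and at 4.10 and -2.02. The normal mice lay above the untreated ones for all 5 genes, for example at 2.56 and 1.73 for Igtp and at 1.38 and 0.69 for Tgtp2. Genes that were dim in untreated kidney gave bounds: Gbp9 was at least 10.8-fold, Ccl12 at least 10.4-fold, Gbp11 at least 7.42-fold, Ccl8 at least 3.23-fold and Il1f6 at least 2.84-fold higher after the mimic. Those bounds rest on unequal mice: from mimic replicate 2 alone they were 1.72 for Gbp9, 3.20 for Ccl12, 1.89 for Gbp11, 1.36 for Ccl8 and 1.61 for Il1f6, and from replicate 1 alone 68.3, 33.7, 29.1, 7.66 and 5.01. Control replicate 1 lay above mimic replicate 2 for Gbp9 (-4.42 against -4.49), Ccl12 (-3.54 against -3.59), Gbp11 (-4.14 against -4.35) and Ccl8 (-2.88 against -4.83). It lay below it for Il1f6 (-5.43 against -4.58). Ccl12 also met the 2-fold limit as higher on both control-miRNA arrays (2.62 and 1.59). A second Iigp1 probe differed by 3.84 and -0.20, so this gene met the limit on both arrays by 1 of its 2 probes. Near-identical family members of the GTPases can share signal on 1 probe.

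Promoters of these genes hold the interferon-stimulated response element, counted on both strands as 2 GAAA blocks with any 2 bases between them. The motif was found in 3.12% of 13429 promoters tested, in 16 of 25 promoters of the interferon list (64%), in 5 of 42 promoters of genes higher on both arrays (11.9%) and in 50 of 494 promoters of genes higher on mimic replicate 1 alone (10.1%). It was found in 1 of 88 promoters of genes lower on both arrays (1.14%). Igtp, Irgm2 and Tgtp2, at chr11:58199507-58199546 and chr11:58214898-58214937 (plus strand) and chr11:49064258-49064297 (minus strand), hold it. The surroundings are nearly the same in Igtp and Irgm2. In Tgtp2 the bases before the motif are close to theirs, but many of those after it differ.
Igtp: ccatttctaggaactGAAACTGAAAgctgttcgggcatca
Irgm2: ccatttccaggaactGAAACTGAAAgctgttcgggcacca
Tgtp2: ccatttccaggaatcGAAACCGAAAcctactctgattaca
The other motifs searched were rare in the set: the heat shock element, 3 alternating GAA and TTC blocks with 2 bases between them (0.424% of promoters tested), the glucocorticoid response element, GNACA and TGTNC with 3 bases between them (0.432%), and the cAMP response element TGACGTCA (2.86%) were found in 0 of the 42 promoters.

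Mimic replicate 1 carried most of the large differences, led by acute phase genes that the liver makes for plasma and injured tubules make in the kidney. Of 13 acute phase genes measured, 9 were higher on mimic replicate 1 alone (3.44% of all genes were) and 0 on both arrays. Their medians were 5.53 on replicate 1 and -0.17 on replicate 2. Saa1, serum amyloid A, stood at -2.15 and -2.66 untreated, -2.30 and -2.34 in control-miRNA mice and 5.38 and -2.34 after the mimic. Fgb, the fibrinogen beta chain, stood at -2.37 and -2.55 untreated, -2.29 and -2.45 in control-miRNA mice and 4.77 and -2.28 after the mimic. Lcn2 (NGAL), a marker of tubular injury, stood at -0.88 and -1.06 untreated, -1.14 and -0.77 in control-miRNA mice and 4.91 and -1.32 after the mimic. In the limma fit of this mouse alone, the adjusted p was 0.00145 for Saa1 and 0.00148 for Fgb and Lcn2, while over both mimic mice it was 0.453, 0.446 and 0.503.
Fgg and Fga, the other fibrinogen chains, Serpina3g, a protease inhibitor, and S100a8, a calcium-binding protein of neutrophils, had differences on replicate 1 of 6.02, 5.92, 5.53 and 5.57. Hp, haptoglobin, stood at 2.73 on mimic replicate 1 but also at 0.35 on control replicate 1 and 1.90 on normal replicate 1, against -2.67 and -2.61 untreated. Of 10 genes of the liver list, which holds fibrinogen genes too, 6 were above the untreated mean on replicate 1, 4 of them at least 2-fold, and 2 were at least 2-fold lower, with a median of 0.49. Alb (-1.97 on replicate 1), Apoa2 (-0.60) and Ttr (0.97), made chiefly by liver, were lower or less high than the fibrinogen genes.

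Antigen presentation genes followed on the same mouse. Of 20 genes, 13 were higher on mimic replicate 1 alone (3.44% of all genes were). Nlrc5, the activator of class I genes, was higher on both arrays (0.831% of all genes were). Medians were 3.75 and 0.40, against 0.73 and 0.11 in control-miRNA mice. Psmb9, a subunit of the immunoproteasome, stood at -0.49 and -0.50 untreated, 0.35 and -0.52 in control-miRNA mice and 4.57 and -0.03 after the mimic, and H2-Ab1, a class II chain, at 3.94 and 3.86, at 4.84 and 4.15, and at 8.10 and 4.45. Mimic replicate 2 lay above both untreated arrays for both genes, by less than control replicate 1 did.
The chemokine and cytokine list (18 genes) had medians of 2.32 and 0.13 with 6 genes on replicate 1 alone, and targets of nuclear factor kappa B (19 genes) 1.14 and -0.03 with 8. Cxcl1, a neutrophil attractant, stood at -1.95 and -2.38 untreated and 2.00 and -3.00 after the mimic, and Tnf differed by -0.20 and 0.01. Of 19 complement genes, 8 were higher on replicate 1 alone (3.44% of all genes were). C3 stood at 5.03 and 4.54 untreated and 8.54 and 4.37 after the mimic.

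Markers of other cell types were higher with these genes on mimic replicate 1, and their part in the differences was not tested. Of 19 macrophage markers, 9 were higher on replicate 1 alone (3.44% of all genes were) and 0 on both arrays. Adgre1 (F4/80) stood at -2.91 and -2.85 untreated, -1.91 and -2.44 in control-miRNA mice and -0.64 and -2.45 after the mimic, and Csf1r at 2.55 and 2.58, at 2.66 and 2.59, and at 3.03 and 2.52. The summed macrophage signal was 4.59 and 4.66 (log2) untreated, 4.88 and 4.76 in control-miRNA mice and 5.90 and 4.29 after the mimic, with Itgam read by a run probe. Of 10 neutrophil markers, 4 were higher on replicate 1 alone, and their summed signal was 4.89 and 4.77 untreated, 4.99 and 5.05 in control-miRNA mice and 5.99 and 4.86 after the mimic, whereas Mpo and Elane differed by -0.56 and -0.65 on replicate 1. Markers of T and NK cells (15 genes, medians -0.02 and 0.01) and of endothelium (17 genes, -0.15 and -0.11) stayed near the untreated mean.
Urothelial markers were higher on mimic replicate 1 (median 1.62 over 11 genes) and more so on control replicate 1 (2.15), and Sprr2a3, a cornified envelope gene named for its difference on both mimic arrays, stood at -4.38 and -4.51 untreated, 1.13 and -2.53 in control-miRNA mice and 1.85 and -2.67 after the mimic. Upk2 stood at -4.16 and -4.24 untreated, -1.0 and -3.74 in control-miRNA mice and -2.58 and -3.66 after the mimic. Of 13 fat cell genes, 5 were at least 2-fold higher on replicate 1 and 2 at least 2-fold lower (1281 and 1726 of 22371 genes tested were). In all, 8 were above the untreated mean there (9521 of all genes tested were). The medians of the list were 0.12 and 0.07 on the 2 mimic arrays. The 2 that were higher on both mimic arrays were Cfd and Adipoq. Control replicate 1 was the highest db/db array for both (0.64 and -1.45, against -1.71 and -4.80 on mimic replicate 1).

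**Figure D4:**
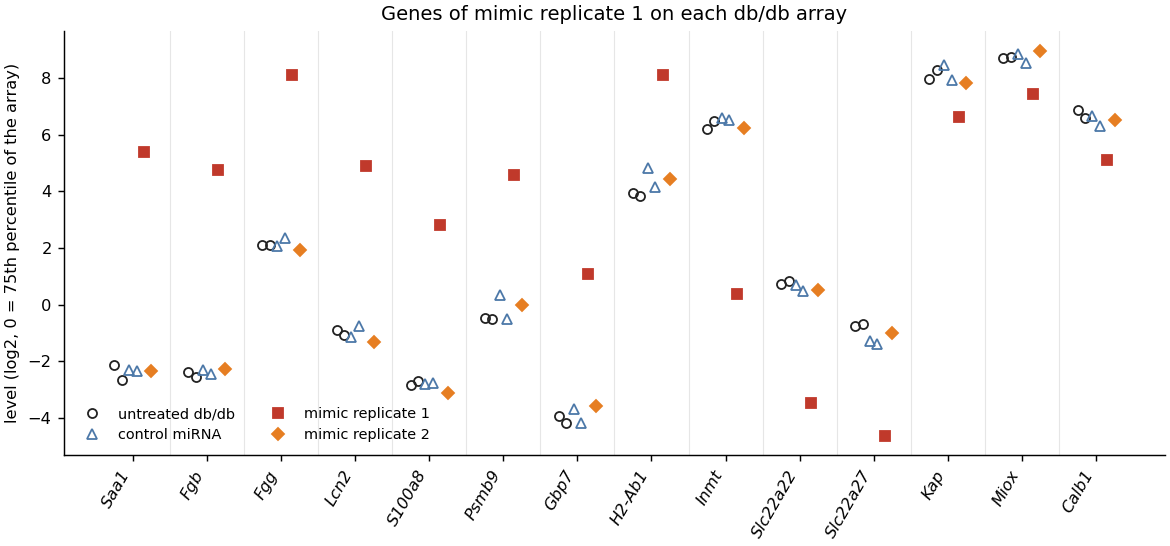
Level (log2, y axis) of 14 genes (x axis) named from mimic replicate 1 on the 2 untreated, 2 control-miRNA and 2 mimic arrays. Mimic replicate 1 (red squares) stands apart for every gene shown, from Saa1 at 5.38 to Slc22a27 at -4.64, and mimic replicate 2 (orange diamonds) lies near the untreated and control-miRNA arrays.

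Genes of differentiated tubules stood lower in the same mouse. Inmt, an N-methyltransferase, stood at 6.21 and 6.5 untreated, 6.61 and 6.51 in control-miRNA mice and 0.38 and 6.23 after the mimic. Slc22a22, a prostaglandin transporter, stood at 0.73 and 0.82 untreated, 0.69 and 0.49 in control-miRNA mice and -3.47 and 0.51 after the mimic. Slc22a27, an organic anion transporter, stood at -0.74 and -0.70 untreated, -1.27 and -1.38 in control-miRNA mice and -4.64 and -0.99 after the mimic. Mimic replicate 1 lay far below the other db/db arrays in all 3, and mimic replicate 2 lay 0.12 to 0.27 below the untreated mean. The normal mice stood at -4.14 and -3.91 for Slc22a27, near mimic replicate 1.
Of 28 genes of organic anion and cation transport, 10 were lower on replicate 1 alone and 1 on both arrays (Slco1a1, -4.47 and -4.05 untreated, -6.91 and -5.85 after the mimic, where it was below background), with medians of -0.94 and -0.08. Of all genes, 4.89% were lower on replicate 1 alone and 0.733% on both arrays. Slc22a6 (OAT1) and Slc22a2 (OCT2) differed by 0.21 and -0.15 and by -0.15 and -0.06. Pde6a, Wfdc16, Ell3 and Cpne4 were among the lowest on replicate 1, with differences of -4.23, -4.08, -3.57 and -3.43.

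Markers of the nephron segments were lower on replicate 1 and near the untreated mean on replicate 2. Medians were -0.82 and 0.07 for the proximal tubule (19 genes), -0.82 and -0.01 for the thick ascending limb (10), -0.89 and 0.03 for the distal convoluted tubule (10) and -0.94 and 0.09 for the collecting duct (11). Slc34a1, the phosphate transporter, stood at 7.87 and 7.84 untreated and 6.88 and 8.00 after the mimic, and Slc12a1, the NKCC2 transporter, at 4.54 and 4.67 and at 2.82 and 4.46. Umod, the most abundant protein of urine, differed by 0.27 and 0.11 and Slc4a4 by -0.03 and 0.03. Intercalated cell markers (13 genes, 0.17 and 0.20) and podocyte markers (16 genes, 0.19 and 0.05) were not lower. Slc7a13, a transporter of the late proximal tubule, was lower on both arrays by 1 of 2 probes (the other differed by -0.76 and -0.59), with 2.40 and 3.14 untreated, 2.62 and 2.19 in control-miRNA mice and 0.11 and 1.71 after the mimic.
Kap, an androgen-regulated protein that is among the most abundant kidney transcripts of male mice, stood at 7.99 and 8.28 untreated, 8.48 and 7.95 in control-miRNA mice and 6.63 and 7.85 after the mimic. Of 18 androgen-dependent genes, 0 passed and 7 had an unadjusted p under 0.05 as lower (7.78% of all genes had) and 0 as higher, with medians of -0.77 and -0.28.

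**Figure D5:**
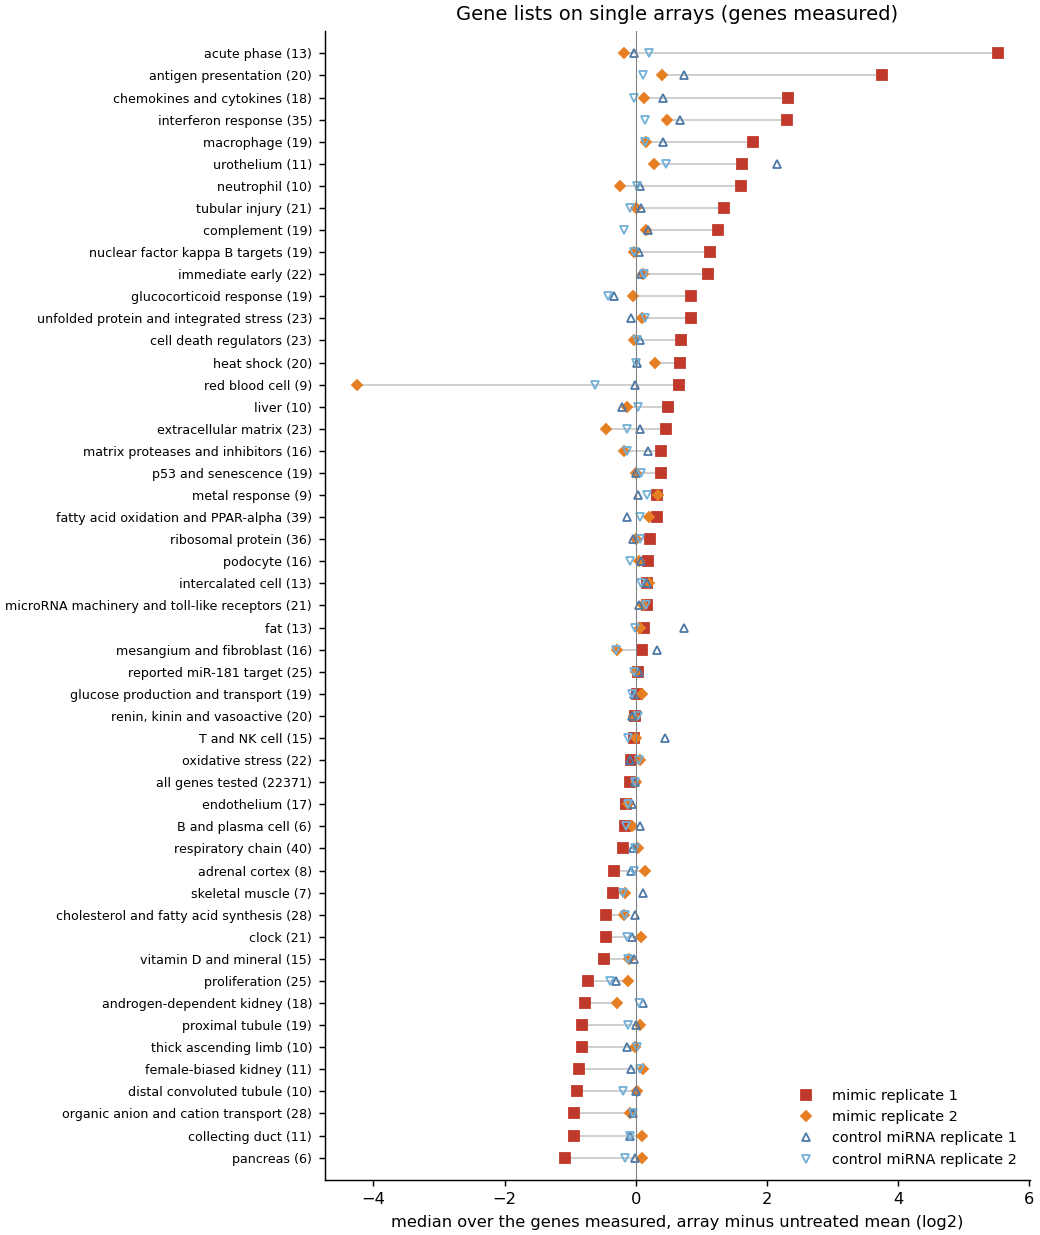
Median difference from the untreated mean (log2, x axis) over the measured genes of each list (y axis, with the number of genes), for each mimic and control-miRNA array. Mimic replicate 1 spans 5.53 (acute phase) to -1.08 (pancreas) while mimic replicate 2 stays between -0.45 and 0.48, except for the red blood cell list at -4.25.

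Mimic replicate 2 differed little on its own, with red blood cell genes as the largest exception. Of 9 such genes, Hba-a1 stood at 6.36 and 6.95 untreated, 6.90 and 5.70 in control-miRNA mice and 7.38 and 1.75 after the mimic, and Hbb-bt at 4.06 and 4.51, at 4.41 and 3.27, and at 5.08 and -0.42. Alas2, the haem synthesis enzyme of red cell precursors, stood at -0.16 on mimic replicate 1 and -5.28 (below background) on replicate 2, against -1.31 and -0.74 untreated. Globin levels of mimic replicate 2 were below those of the normal mice (2.23 and 3.25 for Hba-a1), and the summed signal of the list was 3.83 on that array against 6.94 to 8.54 on the other db/db arrays. Bpgm and Slc4a1, which tubule cells also express, differed by -0.14 and 0.03 on replicate 2.
Among the 117 genes assigned to this mouse alone, Pdgfra, a receptor of fibroblasts, stood at 0.22 and 0.25 untreated, -0.17 and -0.24 in control-miRNA mice and -0.02 and -1.27 after the mimic, and Cyp1b1, a P450 of stromal cells, at 0.42 and 0.52, at 0.19 and -0.14, and at 0.25 and -0.95. Vstm4 and Vgll3 were lower by 1.58 and 1.48 log2 units on this array. Xlr3b, Xlr4b, Cyp2c55 and Syt10 were higher, by 1.83, 1.71, 1.34 and 2.09, and the untreated mice themselves lay more than 1 apart for Xlr3b, Xlr4b and Syt10 (for example -2.80 and -1.18 for Xlr4b). Other probes of Xlr4b and Syt10 differed by 0.38 and 0.76 on this array, under the limit. The extracellular matrix list (23 genes) had a median of -0.45 on mimic replicate 2 and 0.46 on replicate 1. On the control-miRNA arrays its median was 0.07 and -0.13.

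Reported targets of miR-181 were looked at last, since the mimic is meant to lower mRNAs with seed sites. Of 25 measured, by the probe that represents each gene, 0 were at least 2-fold lower on either mimic array and 1, Fos, was higher on both, and the medians were 0.04 and 0.01. Over all 49 probes of these genes, 1 was at least 2-fold lower on both arrays, a Timp3 probe. Timp3, an inhibitor of matrix proteases, stood at 6.42 and 6.25 untreated, 6.53 and 6.43 in control-miRNA mice and 6.06 and 6.27 after the mimic (-0.17 ± 0.13, adjusted p = 0.569). Its 2 other probes disagree: one differed by -0.34 and 0.05, and the other stood at -0.39 and 0.38 untreated, -0.62 and -0.21 in control-miRNA mice and -2.04 and -1.04 after the mimic, differences of -2.04 and -1.04. Kpna4, the importin that carries nuclear factor kappa B into the nucleus, stood at 0.82 and 0.68 untreated, 0.96 and 0.96 in control-miRNA mice and 0.92 and 0.99 after the mimic (0.20 ± 0.11, adjusted p = 0.449). Bcl2, the survival factor, stood at 0.72 and 0.53 untreated and 0.33 and 0.64 after the mimic (-0.14 ± 0.15, adjusted p = 0.671), and Atm, the DNA damage kinase, at -1.91 and -1.89 and at -2.0 and -1.92. For the fitted probes these differences were within about 2 standard errors, and for Timp3 and Bcl2 1 mimic array lay among the untreated ones. Lepr, mutated in all of these mice, stood at 2.29 and 2.30 untreated and 1.98 and 2.35 after the mimic.

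Seed sites could be counted only within the 60 bases of the probes, since transcripts were not used here. Probes of 288 genes held a match to bases 2 to 8 of the miRNA (TGAATGT), with or without the A that follows, or to bases 2 to 7 with that A (GAATGTA). Their median difference was -0.05 and -0.03 on the mimic arrays, against -0.08 and -0.002 for the 22083 genes without one. Lower than the untreated mean on mimic replicate 1 were 55.9% of the genes with a site and 57.5% of those without, and on mimic replicate 2 55.2% and 50.3%. On both arrays, 2 of the 288 genes with a site were at least 2-fold lower and 3 higher (0.733% and 0.831% of all genes were). The reported target Dusp5, a phosphatase of ERK, is shown with its site in capitals.
Dusp5: gtaaacccatgTGAATGTgaagagaagcag
It stood at -2.03 and -2.56 untreated, -2.52 and -2.59 in control-miRNA mice and -1.47 and -2.10 after the mimic. A site in 60 bases leaves the rest of the mRNA unread.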

How the data were processed

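Kidney total RNA was labelled with Cy3 as cRNA and hybridised to 8 one-colour Agilent arrays on 1 slide, per the labels' protocols. The authors' deposited scanner tables hold spot intensity from Agilent Feature Extraction 12.0.3.1, background-subtracted and detrended per the file headers, with probe positions on mm9. The authors' deposited value table holds a linear ratio of each scaled intensity to the probe's median over the arrays, found by setting it against the scanner values; how it was scaled and centred stays unknown, and its column medians were 0.979 and 0.992 (untreated) and 0.977 and 1.03 (mimic).

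From the intensities, log2 of the processed signal of non-control spots minus each array's 75th percentile was computed. A probe was kept where both arrays of some group called it well above background (33638 of 56601), and the probe with the highest mean represented each gene. Symbols came from RefSeq by accession (15882 genes), symbol (1146) or synonym (53), and otherwise from the array (5290). Levels were fitted with limma 3.58.1 in R 4.3.3 over all 8 arrays, 1 mean per group, two-sided, with Benjamini-Hochberg adjustment; standard errors are those of the fit. The scripts were tested on simulated data. Replicates are separate mice, per the series' design text.

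A fold given as at least a value sets the brighter group's mean against the lowest signal well above background on the other group's arrays, or the dim probe's own signal where that was higher. Named genes were those with the smallest p in each direction, the largest differences on both arrays, on 1 array or among dim probes, the largest of each list, and a few reported targets; other genes were named after their values were seen. The members and lists were chosen with earlier results of these data known. Alternatives were quantile normalization, normexp background correction with an offset of 50, other filters, the authors' table, all probes, other fold limits, and leaving out each array. A few genes of the lists counted are not reported here by name.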

Additional observations from a re-analysis of the deposited data

How the results depend on the processing

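The count of 0 genes passing limma held under every alternative run except leaving out mimic replicate 2, so that leaving out 1 array gave 0 to 4149. With the replicate number as a block, 0 genes passed, 3319 had an unadjusted p under 0.05 and the smallest adjusted p was 0.141. The same-numbered deviations correlated at 0.132 over 2 pairs. Same-numbered untreated and mimic arrays also share an array column, and 2 pairs cannot settle whether the mice were paired. The 350 genes on both mimic arrays became 132 (105 higher, 27 lower) with normexp, 805 without the background filter, 180 with probes well above background on all 8 arrays, 1173 at a 1.5-fold and 24 at a 4-fold limit; without 1 untreated array they were 346 to 486. The 1864 genes of mimic replicate 1 alone became 928 (565 higher, 363 lower) with normexp, 2901 without the filter, 3490 at 1.5-fold and 329 at 4-fold, and 1766 to 1875 without 1 untreated array. The 117 of mimic replicate 2 alone became 19 with normexp, 623 without the filter, 44 with all 8 arrays above background, 209 with 1 array above it, 369 at 1.5-fold, 8 at 4-fold and 184 against the untreated array of the same column, and 115 to 132 without 1 untreated array. The difference of Timp3 turned to 0.0199 within array column 4. That of Bcl2 ranged from -0.30 to 0.0112 without 1 mimic replicate and was 0.10 within array column 4, and that of Lepr ranged from -0.31 to 0.0527 and was 0.0449. The cause of these shifts was not tested. Leaving out genes read by run probes, chosen after seeing the data, gave 251 genes on both mimic arrays. The group by 3′ untranslated seed sites was not run. With 2 arrays per group, only differences far beyond the spread between mice could pass, and values under background carry a bound only.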
